A study of Mus musculus with 3 samples.

Results

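The response of WT CD4+ T cells to 24 h of stimulation through CD3 and CD28 was described across all measured genes, from 2 of the 3 single-cell RNA libraries of the series. The members were the cells of the libraries 0hr-WT and 24hr-WT that had more than 200 detected genes and under 15% of their unique molecular identifiers (UMIs, each marking 1 captured RNA molecule) from mitochondrially encoded genes. They numbered 17934 of the 31854 cells kept in the series, 8031 in 0hr-WT and 9903 in 24hr-WT. UMIs were summed per gene and library and expressed as counts per 1000000 UMIs of that library (CPM), and 11453 of the 31053 genes had at least 50 UMIs over both libraries and were taken as measured. The log2 ratio of a gene is its CPM in 24hr-WT over its CPM in 0hr-WT, and a gene is called higher or lower where this ratio is at least 2-fold.

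Both libraries came from Ift20 f/f mice without Cre, on a C57BL/6 background, from male animals of 5 to 10 weeks. Spleen cells were enriched for naive CD4+ T cells with a kit and sorted as 7AAD-CD3+CD4+ cells. The 0hr-WT cells were held in buffer (DPBS), and the 24hr-WT cells were stimulated in culture for 24 h with antibodies to CD3 (1 μg/mL) and to CD28 (1 μg/mL). The third library, 24hr-KO, held cells of Ift20 f/f CD4 cre mice, in which Cre under the Cd4 promoter deletes Ift20 in the T cell lineage, after the same stimulation, and its values are given beside the others without a comparison. How many animals went into a library is not given in the sources used here. The 0hr-WT cells were never in culture, so the effects of antibody stimulation and of 24 h in medium cannot be told apart. As each condition had 1 library, values are given without replicates or tests, and the 95% intervals, in parentheses throughout, cover counting error only.

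A naive CD4+ T cell is small and metabolically quiet, recirculates between blood and lymphoid organs, and is kept alive by interleukin 7 and contact with self peptides. Engagement of the T cell receptor through CD3, with costimulation through CD28, is known to set off calcium, NFAT, AP-1 and NF-kB signaling, secretion of interleukin 2, and growth in cell mass under MYC and mTOR before the first division. The same signals are known to switch off factors of the FOXO and KLF2 program that hold naive cells in circulation.

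The libraries differed in depth, here the number of UMIs, which touches every level below. Depth of sequencing and RNA content of the cells cannot be told apart in these counts. The kept cells of 0hr-WT held 37133949 UMIs and those of 24hr-WT 116979076, with medians of 4627 and 12167 UMIs and 1675 and 3028 genes per cell. Expressed as UMIs per cell in place of CPM, every log2 ratio is higher by 1.35. Cells with under 1/3 of their library's median UMIs made up 10.4% of 0hr-WT and 23.2% of 24hr-WT, and the median mitochondrial share in them was 10.3% in both libraries, against 2.27% and 1.26% in the remaining cells. In 24hr-KO the median was 5014.5 UMIs per cell. Cells under 1/3 of it made up 3.34%, with a median mitochondrial share of 0.191%. The levels given for 24hr-KO thus come from cells unlike those of 24hr-WT in depth. Of the cell barcodes, 114 occurred in both WT libraries, 1.42% of those in 0hr-WT. The labels name a 5′ kit and the methods a 3′ kit, which read opposite ends of a transcript.

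The T cell label was checked against its markers in both libraries. All 8 T cell markers were measured, with Cd3e at 1022 CPM in 0hr-WT and 905 CPM in 24hr-WT and Cd4 at 219 and 120 CPM. Of 13 B cell markers 8 were measured, with a summed level of 302 and 189 CPM. Nearly all of that in 0hr-WT was Ighm, the immunoglobulin mu heavy chain, at 282 and 143 CPM, while the B cell receptor subunit Cd79a was at 0.835 and 0.299 CPM. Cd74, the invariant chain of MHC class II, went the other way, at 10.5 and 42.9 CPM. Of 13 myeloid markers 2 were measured, and the 5 erythroid markers had 0 UMIs. The CD8 chain gene Cd8b1 was at 28.6 and 9.04 CPM, with Cd8a at 0.162 and 0.120 CPM, and the NK cell receptor gene Klrd1 at 42.0 and 1.28 CPM. Among the regulatory T cell markers, Foxp3, the lineage factor, was at 19.9 and 3.12 CPM and Ikzf2 at 13.9 and 1.29 CPM, while 3 of the 6 measured were higher, Il2ra at 15 and 185 CPM, Izumo1r at 110 and 484 CPM and Ctla4 at 8.46 and 26.4 CPM, genes that activated T cells also express. The part of these minor populations in the ratios below was not tested. In sums over a library, fewer cells that express a gene and less of its RNA per cell cannot be told apart.

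Across the transcriptome, 2136 genes were at least 2-fold higher in 24hr-WT, 18.7% of the 11453 measured, and 2349 were at least 2-fold lower, 20.5%. The ratio was at least 4-fold in 818 genes upward and in 752 downward, and at least 32-fold in 99 and 59. The median log2 ratio over all genes was -0.06, and 90% of genes lay between -2.29 and 2.46. The genes called higher held 7.24% of the UMIs of 0hr-WT and 21.5% of those of 24hr-WT, and the genes called lower held 20.4% and 6.76%. The other genes held 72.3% and 71.7%, so most of the RNA captured in either library came from genes that differed by less than 2-fold. The counting interval of the ratio lay above 0 for 4761 genes, below 0 for 5262 and spanned 0 for 1430. In UMIs per cell, 6890 genes were at least 2-fold higher and 534 lower, so 92.8% of the genes called were higher against 47.6% in CPM. With each cell thinned at random to 1400 UMIs, 9738 genes were counted in place of 11453. Of these, 1873 were higher and 1217 lower, so 60.6% of the genes called were higher. As the sets of genes and of cells also changed, the difference from 47.6% cannot be assigned to depth alone.

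**Figure D1:**
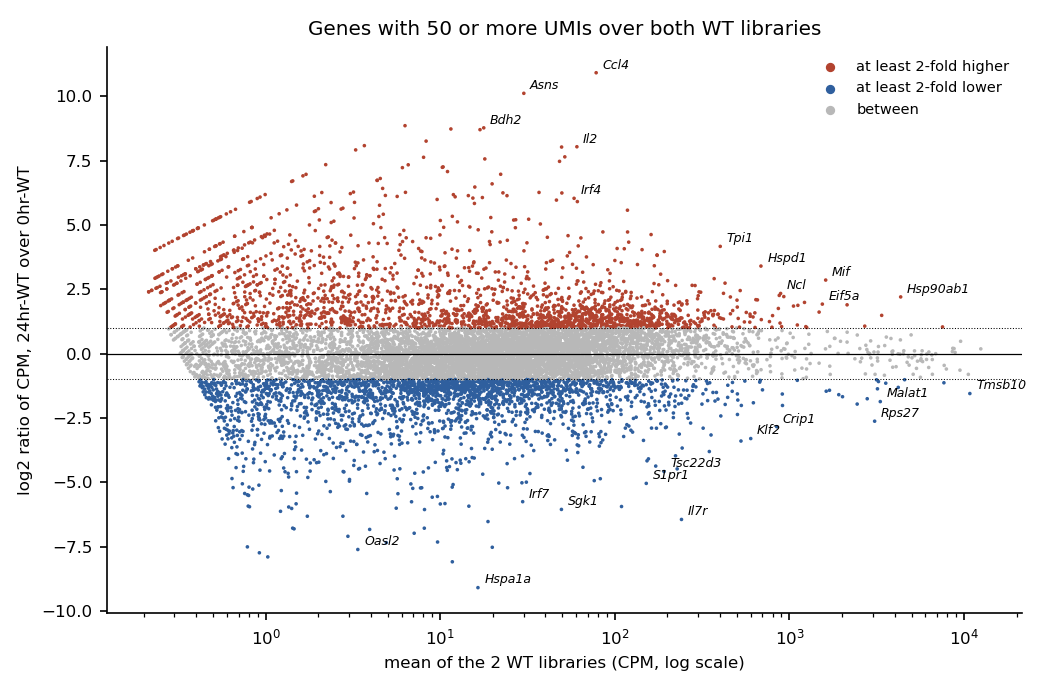
Mean level (CPM, log scale) of each of the 11453 measured genes against its log2 ratio of 24hr-WT over 0hr-WT, with the 2-fold limits as dotted lines, genes called higher in red, lower in blue, and some of the genes in the text labelled. The 2136 red and 2349 blue points lie at levels from under 1 CPM upward, with Ccl4 and Asns at the top and Hspa1a at the bottom.

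The split between higher and lower genes differed with the level and the class of transcript. Among genes under 10 CPM, 22.1% were higher and 27.3% lower, and among the 129 genes at 1000 CPM or more 10.9% were higher and 13.2% lower. Between 100 and 1000 CPM the balance was the other way, at 26.1% higher and 13.4% lower with a median log2 ratio of 0.40. Of the 10668 protein-coding genes 19.0% were higher and 19.1% lower. Of 316 long intergenic noncoding RNAs 17.4% were higher and 36.4% lower, and of 334 antisense transcripts 12.3% and 41.0%. As strand use in counting is not given, reads of antisense transcripts cannot be assigned with certainty. The classes were not matched for level. Of 91 variable segments of T cell receptor genes none was higher and 44.0% were lower, with a median of -0.94 that was above 0 in UMIs per cell.

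Among genes at 50 CPM or more in either WT library, the highest ratios belonged to secreted factors, an enzyme of amino acid synthesis and inhibitors of signaling and of the cell cycle. Ccl4, a chemokine that attracts monocytes and T cells (GRCm38 chr11:83662584-83664683, plus strand), had 0 UMIs in 0hr-WT and 156 CPM (154 to 158) in 24hr-WT. Against a floor of 3 counts in 0hr-WT it was 1933-fold higher, and the lower bound of its log2 ratio was 10.62. Asns, which makes asparagine from aspartate (chr6:7675169-7693254, minus strand), had 2 UMIs in 0hr-WT, or 0.0539 CPM, and 60.1 CPM (58.7 to 61.5) in 24hr-WT. Its log2 ratio was 10.12, with a counting interval of 8.27 to 13.17. Il2, the T cell growth factor (chr3:37120523-37125959, minus strand), was at 0.458 CPM (0.267 to 0.733) in 0hr-WT and 121 CPM (119 to 123) in 24hr-WT. The log2 ratio of Il2 was 8.04 (7.36 to 8.82). In 24hr-KO, Ccl4 was at 147 CPM, Asns at 56.8 CPM and Il2 at 68.7 CPM.

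The next genes in this order were Cdkn1a, the cyclin-dependent kinase inhibitor p21, at 0.377 and 98.7 CPM with a log2 ratio of 8.03, and Rgs16, which shortens signaling by G protein-coupled receptors, at 0.512 and 103 CPM with 7.65. Bcat1, the cytosolic enzyme that transaminates branched-chain amino acids, stood at 0.539 and 95.8 CPM with 7.47. These genes were close to the limit of detection in 0hr-WT. Phlda3, a p53 target, had a log2 ratio of 6.27, and Lag3, an inhibitory receptor for MHC class II, 6.25. Irf4, a factor that scales with receptor signal strength, had 6.04. Spry1, an inhibitor of the RAS pathway, had 5.97 and Pdcd1lg2, a ligand of PD-1, 5.91. Gins2, a part of the replicative helicase, Il12rb1, a chain of the interleukin 12 receptor, and Prelid2 followed at 5.22, 5.21 and 5.19. The predicted gene Gm45716, at 4.85 and 231 CPM with a ratio of 5.58, overlaps Mmd on the same strand, which was at 15.1 and 107 CPM, so how reads were split between them is uncertain.

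Among genes at 50 CPM or more in either WT library, the lowest ratios included those of receptors and regulators of circulating naive cells. Il7r, the interleukin 7 receptor chain on which naive cell survival depends (chr15:9505788-9530176, minus strand), was at 476 CPM (469 to 483) in 0hr-WT and 5.45 CPM (5.04 to 5.89) in 24hr-WT. Its log2 ratio was -6.45 (-6.56 to -6.33). Sgk1, a serum- and glucocorticoid-regulated kinase (chr10:21882184-21999903, plus strand), was at 97.3 and 1.46 CPM, with -6.06. S1pr1, the sphingosine 1-phosphate receptor that lets T cells leave lymphoid organs (chr3:115710433-115715072, minus strand), was at 294 and 8.89 CPM, with -5.04. All 3 remained below 0 in UMIs per cell, by more than 3.5 on the log2 scale. In 24hr-KO, Il7r was at 5.94 CPM, Sgk1 at 1.25 CPM and S1pr1 at 11.6 CPM.

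Other genes in the lowest 15 were the interferon regulatory factor Irf7, at 58.2 and 1.08 CPM, the schlafen gene Slfn5, at 56.9 and 1.75 CPM, the surface protein gene Cd7, at 60.3 and 1.89 CPM, and Ddx58, which encodes the RNA sensor RIG-I, at 62.8 and 2.48 CPM. Dtx1, a Notch regulator linked to T cell anergy, was at 160 and 5.48 CPM. Tsc22d3, the glucocorticoid-induced leucine zipper, and Pik3ip1, an inhibitor of PI3 kinase, had log2 ratios of -4.58 and -4.42. Rasgrp2, an activator of the small GTPase RAP1, was at 289 and 16.1 CPM and Rflnb at 327 and 15.8 CPM. Ly6c1 was at 435 and 19.5 CPM in the WT libraries and at 2.52 CPM in 24hr-KO. Gm45552, with -5.94, overlaps another gene on the opposite strand, and whether the counting used strand is not given in the sources used here, so its reads cannot be assigned with certainty. The same holds for Gm26740, with -4.94, which overlaps genes on the opposite strand.

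**Figure D2:**
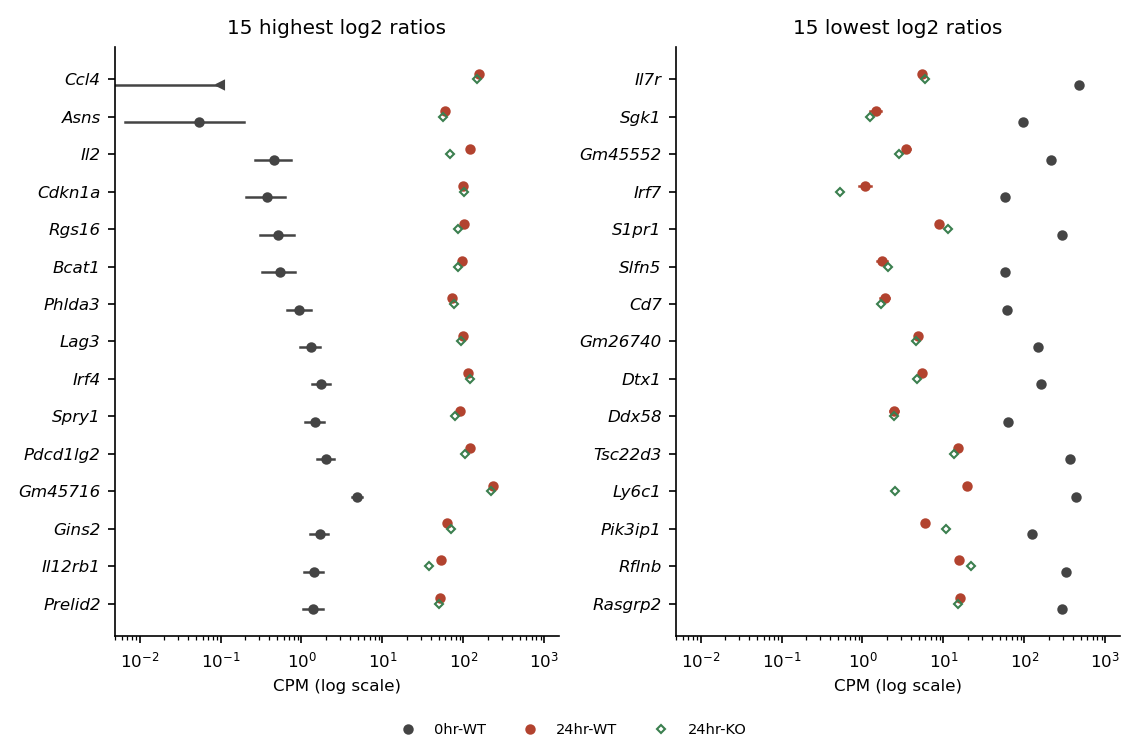
Level (CPM, log scale) of the genes with the 15 highest (left) and 15 lowest (right) log2 ratios, in 0hr-WT (grey), 24hr-WT (red) and 24hr-KO (green diamonds), with exact 95% Poisson intervals as bars for the WT libraries and an arrow at the upper bound for Ccl4 in 0hr-WT. The 15 highest genes lay under 5 CPM in 0hr-WT and above 50 CPM in 24hr-WT, and Ly6c1 was at 19.5 CPM in 24hr-WT and 2.52 CPM in 24hr-KO.

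Secreted factors were described first among the gene groups. Of 18 measured cytokine genes 10 were higher and 2 lower, with a median log2 ratio of 1.63 against -0.06 for all genes. Lta, which encodes lymphotoxin alpha, was at 19.4 CPM in 0hr-WT and 168 CPM in 24hr-WT, and Tnfsf11, which encodes RANKL, at 3.23 and 23.2 CPM. Lower were Il16, at 281 and 89.6 CPM, and Ltb, the partner chain of lymphotoxin alpha, at 916 and 445 CPM, with a log2 ratio of -1.04 that was 0.31 in UMIs per cell. The summed level of the list, to which Ltb contributed most in 0hr-WT, was 1597 CPM in 0hr-WT and 1459 CPM in 24hr-WT.

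Of 10 chemokine genes listed 6 were measured. Of these 5 were higher, and 4 of the higher ones had 0 UMIs in 0hr-WT. A gene at 0 in 0hr-WT counts as measured only through its UMIs in 24hr-WT, and is then always called higher against the floor. The call of these 4 genes, though not the size of their ratios, was therefore fixed in advance. The same holds for 1 gene of the cytokine list above and 1 each of the Nr4a and Egr, one-carbon and nucleotide lists below. Among the 4 chemokine genes, Ccl20 was at 0.88 CPM in 24hr-WT and was detected, without thinning, in 0.0303% of its cells. The median log2 ratio of the list was 6.50, and 6.35 with the genes at 0 set to their bound. Besides Ccl4, Ccl3 was at 33.8 CPM in 24hr-WT, 418-fold above the floor, and Ccl1, a ligand of CCR8, at 12.1 CPM, 150-fold above it. Ccl1 was at 0.0846 CPM in 24hr-KO and Ccl3 at 23.7 CPM. Ccl5 was at 7.97 and 3.53 CPM in the WT libraries, with a log2 ratio of -1.175 that was above 0 in UMIs per cell.

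Cytokine receptor genes were more often lower than higher. Of 21 cytokine receptor genes 3 were higher and 15 lower, with a median of -1.41 in CPM and -0.06 in UMIs per cell. They summed to 4860 CPM in the 24hr-WT cells with under 1/3 of the median UMIs, against 1344.5 CPM in the rest. Il18r1, a chain of the interleukin 18 receptor, was at 28.7 and 0.470 CPM, and Tgfbr2, the type II receptor of TGF-beta, at 219 and 27.8 CPM. Il2ra, the high-affinity interleukin 2 receptor chain also called CD25, was at 15 and 185 CPM, and at 202 CPM in 24hr-KO. Thus Il2 and Il2ra stood among the higher genes while the receptors for interleukins 7 and 18 stood among the lower ones.

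Checkpoint genes were more often higher than lower, and TNF receptor superfamily genes were called equally often in both directions. Of 17 genes of the CD28 family and other checkpoints 11 were higher and 2 lower, with a median of 1.64. They summed to 4569 CPM in the 24hr-WT cells with under 1/3 of the median UMIs, against 1525 CPM in the rest. Pdcd1, which encodes PD-1, was at 6.19 and 164 CPM, and Cd96 at 57.1 and 12 CPM. Of 12 TNF receptor superfamily genes 3 were higher and 3 lower, 25% each way against 18.7% and 20.5% of all genes. Their median was -0.20, which was above 0 in UMIs per cell. Tnfrsf9 (4-1BB) was at 11.4 and 194 CPM and Tnfrsf4 (OX40), a costimulatory receptor, at 23 and 361 CPM, whereas Tnfrsf25, the receptor DR3, was at 58.9 and 17.8 CPM and Tnfrsf1a had a log2 ratio of -1.23 that was 0.12 in UMIs per cell.

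**Figure D3:**
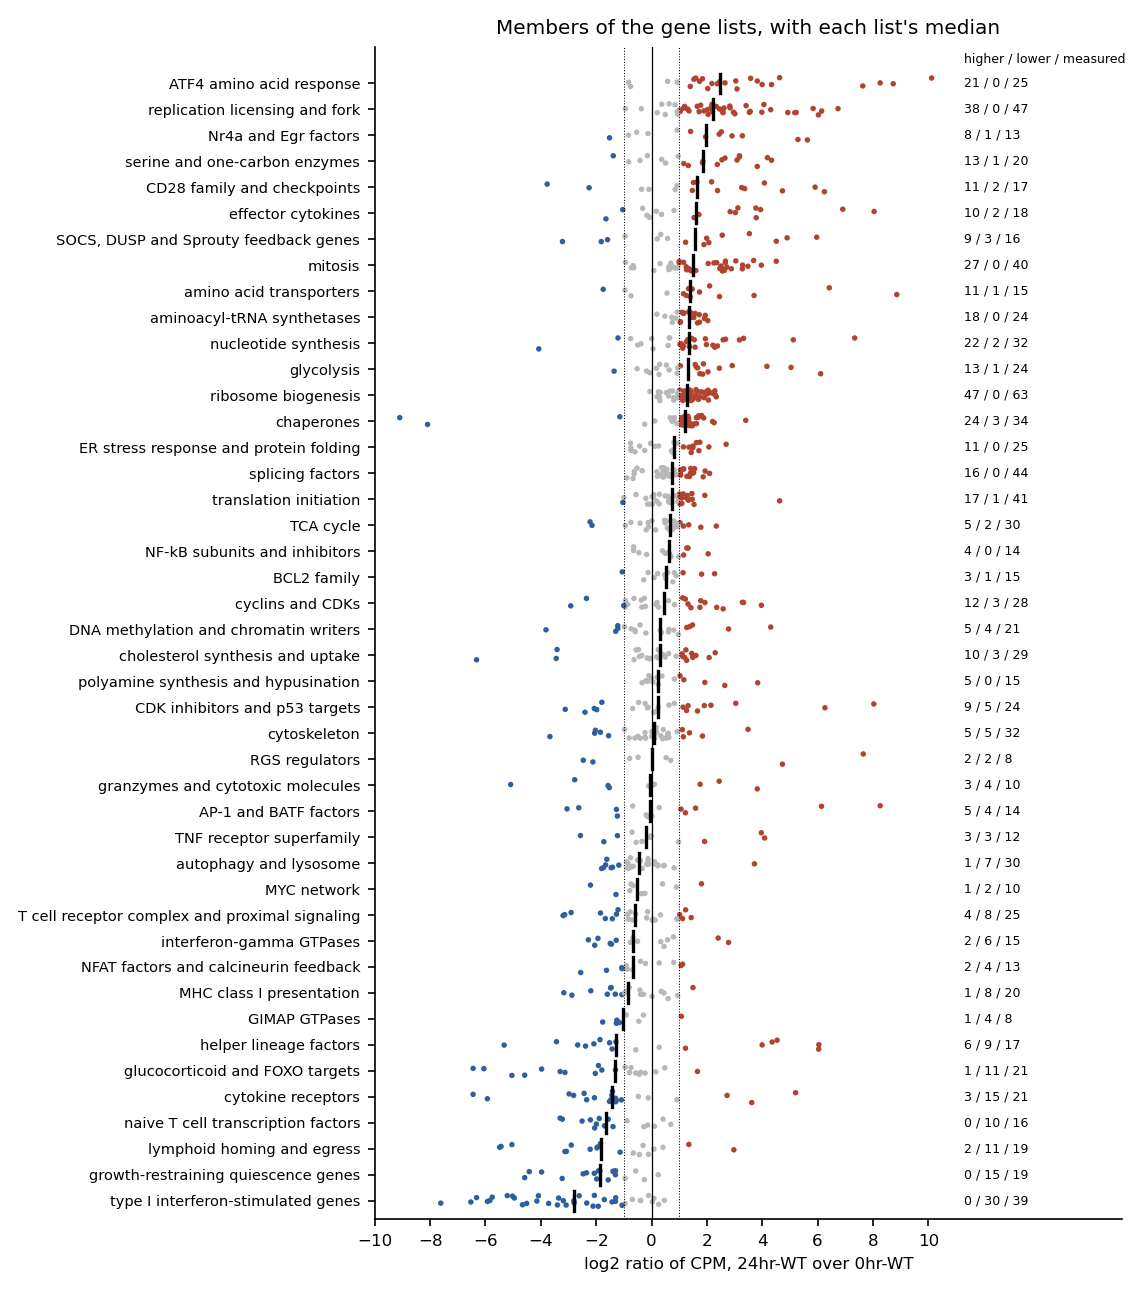
Log2 ratio (CPM) of every measured member of each gene list with 8 or more of them, 1 point per gene with random vertical offset, and the median of the list as a black bar, with the numbers higher, lower and measured at the right. The ATF4 amino acid response (median 2.46) and replication genes (2.21) lie highest and type I interferon-stimulated genes (-2.80) lowest, and most lists hold members on both sides of 0.

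Components and targets of T cell receptor signaling were divided. Of 25 genes of the receptor complex and its proximal kinases and adaptors 4 were higher and 8 lower, with a median of -0.58 that was 0.77 in UMIs per cell. These were 16% and 32% of them, against 18.7% and 20.5% of all genes. Sh2d2a, an adaptor that binds LCK, was at 107 and 289 CPM, and Cd5, a negative regulator of receptor signaling, at 330 and 774 CPM. Themis, a regulator of receptor signal strength in development, was at 73.9 and 8.07 CPM and the TEC family kinase gene Txk at 159 and 18.1 CPM. Of 13 NFAT and calcineurin genes 2 were higher and 4 lower, 15.4% and 30.8% of them. The higher ones were Nfatc1, at 62.3 and 136 CPM, and the calcium channel gene Orai1, at 95.7 and 201 CPM. Among the lower ones was Ppp3ca, a catalytic subunit of calcineurin, at 44.8 and 7.61 CPM. Of 14 NF-kB genes 4 were higher, led by Nfkb2 with 2.05, and none was lower.

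Immediate-early and feedback genes differed from list to list. Of 13 genes of the Nr4a and Egr group 8 were higher and 1 lower, with a median of 1.95. Nr4a2, an orphan nuclear receptor, was at 0.970 and 38 CPM, Nr4a3 at 3.31 and 32.2 CPM, and Nab1, a corepressor of EGR factors, at 31.5 and 11 CPM. Of 14 AP-1 and BATF factors 5 were higher and 4 lower, 35.7% and 28.6% against 18.7% and 20.5% of all genes. Fosl1 was at 0.404 and 28.5 CPM with a log2 ratio of 6.14, and Jun at 103 and 12.4 CPM with -3.05, while Batf was at 46.4 and 46.7 CPM. Of 16 SOCS, DUSP and Sprouty feedback genes 9 were higher and 3 lower. Dusp6, a phosphatase of ERK, was at 6.44 and 74.6 CPM and Socs3, an inhibitor of cytokine signaling, at 75.9 and 8.15 CPM. Of 8 RGS genes 2 were higher, Rgs16 and Rgs1, the latter at 8.59 and 228 CPM, and 2 lower, including Rgs14 at 97.6 and 17.7 CPM. That was 25% each way, against 18.7% and 20.5% of all genes.

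The transcription factors of naive cells and of helper lineages were lower more often than higher. Of 16 naive T cell factors none was higher and 10 were lower, with a median of -1.63 in CPM and -0.28 in UMIs per cell. Klf3 was at 203 and 21.7 CPM and Tcf7, which encodes TCF1, at 447 and 78.5 CPM, while Id3 and Bach2 had log2 ratios of 0.70 and 0.42. Of 17 helper lineage factors 6 were higher and 9 lower, with a median of -1.29 that was 0.07 in UMIs per cell. Bhlhe40 was at 0.458 and 30.3 CPM and Irf8 at 3.56 and 56.7 CPM. Tbx21, which encodes the Th1 factor T-bet, was at 0.646 and 13.2 CPM and at 1.45 CPM in 24hr-KO. Gata3, the Th2 factor, was at 58.6 and 13.9 CPM, and Runx3 at 48.1 and 9.21 CPM.

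Genes of quiescence and of homing were among the lowest groups. Of 19 growth-restraining genes none was higher and 15 were lower, with a median of -1.86 in CPM and -0.51 in UMIs per cell. Txnip, an inhibitor of glucose uptake, was at 418 and 26.6 CPM, whereas Slfn2, required for T cell quiescence, was at 459 and 543 CPM. Of 19 homing and egress genes 2 were higher and 11 lower, with a median of -1.84. Itga4, an integrin chain, was at 120 and 14.2 CPM. Ccr4 was at 1.64 and 12.9 CPM and Cd69, which opposes S1PR1 at the surface, at 119 and 303 CPM. Ccr7, the chemokine receptor for entry into lymph nodes, was at 721 and 532 CPM, and its log2 ratio of -0.44 was above 0 in UMIs per cell.

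Glucocorticoid and FOXO targets, a list that shares Il7r, Sgk1 and S1pr1 with others, had 1 higher and 11 lower of 21, with a median of -1.30 that was 0.05 in UMIs per cell.

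Interferon-stimulated genes formed the lowest list. Type I interferon is known to induce these antiviral genes through the factor ISGF3. Of 39 measured genes none was higher and 30 were lower, 76.9% against 20.5% of all genes, with a median of -2.80 in CPM and -1.44 in UMIs per cell. Rtp4 was at 37.1 CPM in 0hr-WT and 0.402 CPM in 24hr-WT, and Ifi213 at 47.3 and 1.27 CPM. Not every member was lower, with Bst2, which tethers budding virus to the cell, at 105 and 125 CPM. In 24hr-KO, Rtp4 was at 0.0470 CPM. In the cells with under 1/3 of the median UMIs the summed level of the list was 3517 and 2369 CPM, against 2815 and 1383 CPM in the rest.

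Genes known for their response to interferon gamma were divided. Of 15 GTPases of the GBP and IRG families 2 were higher and 6 lower, 13.3% and 40% of them against 18.7% and 20.5% of all genes. Their median was -0.68, and 0.68 in UMIs per cell. Gbp2 was at 52.0 and 276 CPM, and at 120 CPM in 24hr-KO, and Gbp5 at 5.92 and 40.8 CPM. Tgtp2 was at 52.6 and 10.8 CPM and Gbp7 at 49.5 and 11.9 CPM. These families hold near-identical copies, between which the counting may have split reads.

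Promoters of the interferon list are shown because most of them held the same short motif. Promoters of 250 bases before to 50 bases after the start were taken from RefSeq (GRCm38.p6), 1 start site per gene, and 8741 of the 11453 measured genes (76.3%) had one. The interferon response element was searched as GAAA, any 2 bases and GAAA on both strands, and 20 of the 31 promoters of the list held it (64.5%), against 3.18% of all measured genes, 3.49% of all 27025 promoters in the table, 2.88% of genes called higher and 5.14% of genes called lower. The stretches below run 5′ to 3′ on the strand of the gene and the motif, or its reverse complement, is in capitals. They lie at chr12:26456503-26456632 on the minus strand for Rsad2, chr1:173599276-173599405 on the minus strand for Ifi213 and chr11:82951887-82952016 on the plus strand for Slfn5, and the match begins 120, 73 and 155 bases before the start.
Rsad2: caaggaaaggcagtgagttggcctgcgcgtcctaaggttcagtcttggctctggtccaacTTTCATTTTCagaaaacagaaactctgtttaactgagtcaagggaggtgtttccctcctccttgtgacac
Ifi213: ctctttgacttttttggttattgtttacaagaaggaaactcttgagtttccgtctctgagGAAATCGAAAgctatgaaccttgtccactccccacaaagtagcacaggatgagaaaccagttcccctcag
Slfn5: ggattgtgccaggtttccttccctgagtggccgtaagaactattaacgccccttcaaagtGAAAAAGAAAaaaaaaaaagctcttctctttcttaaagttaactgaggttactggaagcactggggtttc
Rsad2, which encodes viperin, was at 1.56 and 0.0256 CPM, with 3 UMIs in 24hr-WT and a log2 ratio of -5.93 (-8.25 to -4.31). A match is a description of the letters and not a measured binding site.

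Antigen presentation and other lymphocyte surface families were also lower in part. Of 20 MHC class I presentation genes 1 was higher and 8 were lower, with a median of -0.86 that was 0.49 in UMIs per cell. H2-K1, a classical class I heavy chain, was at 2879 and 952 CPM and H2-Q7, a nonclassical one, at 343 and 46.7 CPM, whereas Calr, a chaperone of the peptide loading complex, was at 105 and 297 CPM. The H2-Q genes are near-identical copies, so the split of reads among them is uncertain. Of 8 GIMAP GTPases, which act in lymphocyte survival, 1 was higher and 4 were lower, with a median of -1.04 that was 0.32 in UMIs per cell. Gimap5, without which naive T cells are lost, was at 107 and 226 CPM and Gimap8 at 104 and 30.8 CPM. Of 6 Ly6 genes 1 was higher and 3 were lower, with a median of -1.17 that was 0.19 in UMIs per cell, and Ly6a (Sca-1) was at 349 and 339 CPM.

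The amino acid response was the second highest list. ATF4 is a factor whose translation is known to increase when amino acids are short or mTORC1 is active, and it drives amino acid synthesis and uptake. Of 25 measured genes 21 were higher and none lower, 84.0% against 18.7% of all genes, with a median of 2.46. Of the 25 genes, 3 had 0 UMIs in 0hr-WT, so their call was fixed in advance, as for the chemokines. With these set to their bound the median was also 2.46. The summed level of the list was 724 CPM in 0hr-WT, 2792 CPM in 24hr-WT and 2539 CPM in 24hr-KO. Chac1, which degrades glutathione, had 2 UMIs in 0hr-WT and 22.9 CPM in 24hr-WT, a log2 ratio of 8.73 (6.88 to 11.78), and Atf3 had 2 UMIs and 16.5 CPM, with 8.26 (6.41 to 11.31). Cth, which makes cysteine, had 0 UMIs in 0hr-WT and 16 CPM in 24hr-WT, 199-fold above the floor. Eif4ebp1, the translation repressor 4E-BP1, was at 12.5 and 310 CPM. Ddit3, which encodes the stress factor CHOP, was at 21 and 12.4 CPM and Sqstm1 at 236 and 133 CPM, log2 ratios of -0.76 and -0.83 that were above 0 in UMIs per cell.

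Promoters of Asns, Chac1 and Atf3 are shown, since these genes had the highest ratios of the list and each held a C/EBP-ATF response element, searched as TGATGNAA on both strands. It was in 7 of the 20 promoters of the list (35.0%) and in 5 of 16 of the aminoacyl-tRNA synthetases (31.2%), against 2.25% of all measured genes, 4.06% of all promoters, 3.49% of genes called higher and 2.54% of genes called lower. They lie at chr6:7693180-7693292 (minus strand), chr2:119350992-119351116 (plus strand) and chr1:191183376-191183503 (minus strand), with the match, in capitals on either strand, beginning 23, 193 and 110 bases before the start.
Asns: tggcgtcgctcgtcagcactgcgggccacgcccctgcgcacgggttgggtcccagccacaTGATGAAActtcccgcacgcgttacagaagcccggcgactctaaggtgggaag
Chac1: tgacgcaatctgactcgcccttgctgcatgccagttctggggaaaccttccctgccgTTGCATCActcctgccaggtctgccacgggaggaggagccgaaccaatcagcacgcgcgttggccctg
Atf3: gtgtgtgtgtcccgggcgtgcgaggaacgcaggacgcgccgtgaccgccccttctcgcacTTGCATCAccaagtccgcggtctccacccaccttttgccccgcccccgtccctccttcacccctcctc

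Glycolysis genes were more often higher than lower. Of 24 glycolysis genes 13 were higher and 1 lower, with a median of 1.31, and their summed level was 3439 and 10346 CPM. Slc16a3, the lactate exporter MCT4, was at 2.21 and 72.6 CPM, Tpi1, triose phosphate isomerase, at 42.2 and 760 CPM and Pgam1, phosphoglycerate mutase, at 86.7 and 654 CPM. Hk2, the inducible hexokinase, was at 0.162 and 11.2 CPM. Eno1 was at 390 and 372 CPM, and Slc2a3, a glucose transporter, at 10.4 and 4.06 CPM.

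Amino acid transport and one-carbon metabolism followed. Of 15 amino acid transporters 11 were higher and 1 lower, with a median of 1.40. The list summed to 3386 CPM in the 24hr-WT cells with under 1/3 of the median UMIs, against 949 CPM in the rest. Slc7a5, which carries large neutral amino acids together with Slc3a2, was at 29.1 and 125 CPM, and Slc1a5, a glutamine carrier, at 107 and 357 CPM, whereas Slc38a2 was at 92.6 and 55.3 CPM. Of 20 serine and one-carbon enzymes 13 were higher and 1 lower, with a median of 1.85. Shmt1 was at 6.41 and 117 CPM and Psat1, an enzyme of serine synthesis, at 23.1 and 326 CPM. Of 32 nucleotide synthesis genes 22 were higher and 2 lower, with a median of 1.34, led among the abundant ones by Tk1, thymidine kinase, at 0.700 and 24.4 CPM and Rrm2, a ribonucleotide reductase subunit, at 3.31 and 33.2 CPM. Dck, which salvages deoxycytidine, was at 36.2 and 15.7 CPM, and its log2 ratio of -1.21 was 0.14 in UMIs per cell. In 24hr-KO, Shmt1 was at 108 CPM and Psat1 at 299 CPM.

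Polyamine, sterol and mitochondrial genes had smaller medians. Of 15 polyamine genes 5 were higher and none lower. Odc1, the first enzyme of polyamine synthesis, was at 22.8 and 326 CPM and Srm, spermidine synthase, at 79.2 and 497 CPM. Of 29 cholesterol genes 10 were higher and 3 lower, with the synthesis enzymes Cyp51 and Idi1 at log2 ratios of 2.30 and 2.08 and the exporter Abcg1 and the LDL receptor ligase Mylip at -3.44 and -3.41. Of 30 TCA cycle genes 5 were higher and 2 lower, 16.7% and 6.67% of them, against 18.7% and 20.5% of all genes. Got1, a malate-aspartate shuttle enzyme, was at 24.8 and 126 CPM and Pdk1, an inhibitor of pyruvate dehydrogenase, at 115 and 26.0 CPM. Of 81 nuclear genes of the respiratory chain 15 were higher, 18.5% and so near the share of all genes, and 1 was lower. Their median was 0.63. Of the 13 mitochondrially encoded genes none was higher and 3 were lower, 23.1% and near the share of all genes. Their median was -0.56, and 0.79 in UMIs per cell. The mitochondrially encoded genes summed to 96670 and 97049 CPM in the cells with under 1/3 of the median UMIs and to 23442 and 12961 CPM in the rest.

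Genes that build ribosomes and charge tRNAs were mostly higher. Of 63 ribosome biogenesis genes 47 were higher and none lower, 74.6% of them, with a median of 1.27, and their summed level was 4881 and 13971 CPM. Nop16, a nucleolar protein of the large subunit, was at 37.0 and 184 CPM and Gar1, of the H/ACA particle, at 63.9 and 312 CPM. An E-box, searched as CACGTG, was in 12 of their 56 promoters (21.4%), against 10.7% of all measured genes and 12.9% of genes called higher. Of 24 aminoacyl-tRNA synthetases 18 were higher and none lower, with Cars and Gars at log2 ratios of 2.03 and 1.94. Of 77 mitochondrial ribosomal proteins 43 were higher and none lower, and of 47 proteasome genes 27 were higher and none lower.

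Most cytosolic ribosomal protein genes differed by less than 2-fold. Of 81 genes 5 were higher and 10 lower, with a median of -0.05 that was 1.31 in UMIs per cell, and together they held 34.1% of the UMIs of 0hr-WT and 30.3% of those of 24hr-WT. Rps27 was at 5292 and 856 CPM with a log2 ratio of -2.63, Rps29 at 3885 and 998 CPM with -1.96 and Rps21 at 4301 and 1275 CPM with -1.75. The paralog Rps27l was among the higher ones, with 2.40. Ribosomal protein genes have many processed copies in the genome, so single members are uncertain. The cells with under 1/3 of the median UMIs held 74106 and 140813 CPM of ribosomal protein transcripts, and the rest 347204 and 309653 CPM.

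Of 41 translation initiation genes 17 were higher and 1 lower, with a median of 0.73. The lower one was Eif4ebp2, a translation repressor, with -1.04, or 0.32 in UMIs per cell.

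Chaperone genes were mostly higher, with the heat-inducible HSP70 genes among the exceptions. Of 34 genes 24 were higher and 3 lower, with a median of 1.22, and their summed level was 8141 and 22594 CPM. Hspd1, the mitochondrial chaperonin (chr1:55077835-55088243, minus strand), was at 118 and 1254 CPM, its partner Hspe1 at 301 and 1446 CPM, and Hsp90ab1, the constitutive HSP90, at 1545 and 7123 CPM. The heat-inducible Hspa1a was at 32.8 and 0.0598 CPM and Hspa1b at 23.4 and 0.0855 CPM, log2 ratios of -9.10 and -8.09 that rest on 7 and 10 UMIs in 24hr-WT. These adjacent genes are near-identical copies, so the split of reads between them is uncertain. Dnajb1, an inducible cochaperone, was at 174 and 78.6 CPM, with a log2 ratio of -1.15 that was above 0 in UMIs per cell. Of 25 genes of the endoplasmic reticulum stress response 11 were higher and none lower, led by Sdf2l1 at 20.7 and 134 CPM. In the cells with under 1/3 of the median UMIs of 24hr-WT that list summed to 12101 CPM, against 3603 CPM in the rest.

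DNA replication genes and mitotic genes were mostly higher, and the median mitotic gene was detected in few cells of either library. Of 47 replication genes 38 were higher and none lower, 80.9% of them, with a median of 2.21, and their summed level was 926 CPM in 0hr-WT, 3409 CPM in 24hr-WT and 3890 CPM in 24hr-KO. Chaf1a, a histone chaperone subunit, was at 0.539 and 30.8 CPM and Gins2 at 1.67 and 62.5 CPM. Mcm5, a subunit of the MCM helicase, was at 17.3 and 200 CPM and Mcm6 at 49.2 and 352 CPM. Mcm10 had 3 UMIs in 0hr-WT and 8.62 CPM in 24hr-WT, with a log2 ratio of 6.74 (5.19 to 9.02), and Orc1, of the origin recognition complex, was at 0.135 and 9.56 CPM. Of 40 mitosis genes 27 were higher and none lower, with a median of 1.51. Their summed level was 858 CPM in 0hr-WT and 1260 CPM in 24hr-WT. Smc4 contributed 226 and 143 CPM of this, with a log2 ratio of -0.66 that was 0.69 in UMIs per cell. Cdk1, the mitotic kinase, was at 0.943 and 14.8 CPM, and the median member was detected in 0.118% of thinned 0hr-WT cells and 0.717% of thinned 24hr-WT cells.

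Promoters of Orc1, Mcm5 and Mcm6 are shown for the E2F element, through which E2F factors are known to act on replication genes. It was searched as TTTNGCGC on both strands and was in 9 of the 38 promoters of the replication list (23.7%), against 2.71% of all measured genes, 1.38% of all promoters, 4.11% of genes called higher and 1.36% of genes called lower. They lie at chr4:108579367-108579483 (plus strand), chr8:75109296-75109427 (plus strand) and chr1:128359685-128359875 (minus strand), and the first match begins 27, 153 and 110 bases before the start. Mcm5 held 2 matches that overlap and Mcm6 held 3, some of which overlap, and all matches are in capitals.
Orc1: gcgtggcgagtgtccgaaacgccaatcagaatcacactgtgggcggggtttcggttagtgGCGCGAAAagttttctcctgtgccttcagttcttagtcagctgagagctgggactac
Mcm5: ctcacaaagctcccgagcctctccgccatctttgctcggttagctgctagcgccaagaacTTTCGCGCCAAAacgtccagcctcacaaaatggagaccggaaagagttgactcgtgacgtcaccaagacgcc
Mcm6: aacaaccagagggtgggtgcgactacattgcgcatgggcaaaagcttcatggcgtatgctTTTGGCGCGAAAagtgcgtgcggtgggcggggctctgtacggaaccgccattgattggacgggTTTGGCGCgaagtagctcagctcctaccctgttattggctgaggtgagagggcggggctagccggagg

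Regulators of the cell cycle, of survival and of chromatin held members in both directions, the latter 2 groups at shares near the 18.7% and 20.5% of all genes or under them. Of 28 cyclin and CDK genes 12 were higher and 3 lower. The early G1 genes Cdk6, Cdk4 and Ccnd2 had log2 ratios of 2.59, 1.93 and 1.43, and Cdc25b was at 52.9 and 6.99 CPM. Of 24 CDK inhibitors and p53 targets 9 were higher and 5 lower, 37.5% and 20.8% of them, the lower share near that of all genes. Cdkn1a was among the highest genes, and Cdkn2d, the inhibitor p19, was at 145 and 16.7 CPM, Cdkn1b, the inhibitor p27, at 105 and 26.7 CPM, and Sesn1 at 82.5 and 15.6 CPM. Of 15 BCL2 family genes 3 were higher and 1 lower. Bcl2l1 (BCL-XL) was at 10.3 and 36.0 CPM and Bcl2 at 237 and 114 CPM, with a log2 ratio of -1.06 that was 0.30 in UMIs per cell. Among 21 chromatin writers 5 were higher and 4 lower, with Uhrf1, which maintains DNA methylation, at 3.02 and 59.7 CPM, Ezh2, the H3K27 methyltransferase, at 16.8 and 116 CPM and its paralog Ezh1 with -1.29, or 0.06 in UMIs per cell.

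Other groups held single genes that stood out from their list. Myc, the growth factor-induced regulator, was at 75.6 and 264 CPM, the only gene of 10 in its network called higher, and Mxd4, an antagonist of MYC, at 68.6 and 14.9 CPM. Of 32 cytoskeletal genes 5 were higher and 5 lower, or 15.6% each way, under the shares of all genes, with Vim (vimentin) at 450 and 35.3 CPM and Tmsb10, an actin-binding thymosin, at 16095 and 5490 CPM, against Lmnb1, lamin B1, at 37.0 and 133 CPM. Of 10 cytotoxic molecules 3 were higher and 4 lower, with Srgn, the granule proteoglycan, at 394 and 1332 CPM and Prf1, perforin, at 23 and 0.675 CPM. Mir155hg, the host transcript of miR-155, was at 0.592 and 45.1 CPM, and Malat1 at 5197 and 1427 CPM. In the cells with under 1/3 of the median UMIs, the nuclear long noncoding RNAs, among them Malat1, summed to 34320 and 10049 CPM, against 4659 and 1250 CPM in the rest. Of 44 splicing factor genes 16 were higher and none lower, with Hnrnpa1 at 2.10 and Rbm39 at -0.89 on the log2 scale. Of 30 autophagy and lysosome genes 1 was higher and 7 were lower, 3.33% and 23.3% of them, against 18.7% and 20.5% of all genes. Their median was -0.46, and 0.89 in UMIs per cell.

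Gene families were also formed from the leading letters of the symbol alone, without a hand-written list. Among 169 families with at least 8 measured members, Mcm had the highest median, 2.83, with 8 of 10 higher and none lower, and Mcm9 at -0.68. The mitochondrial ribosomal family Mrpl had 28 of 49 higher and a median of 1.11. At the other end, Ifi had none of 10 higher and 6 lower, with a median of -2.55. The Ifitm genes, which form a separate prefix, ranged from Ifitm10 at 5.87 and 0.0427 CPM to Ifitm2 at 0.404 and 39.2 CPM. Ifitm10 and Ifitm2 had log2 ratios of -7.10 and 6.60. Klf had 1 of 11 higher and 7 lower, with a median of -1.47 in CPM, and Klf9 was the exception, with a log2 ratio of 1.66. Parp had 1 of 12 higher, Parp1 with 1.44, and 9 lower, with a median of -1.37. Arhgap, which encodes GTPase-activating proteins, had 1 of 23 higher and 14 lower, with a median of -1.24 that was above 0 in UMIs per cell. Of 306 zinc finger genes named Zfp 16 were higher and 73 lower, 5.23% and 23.9% of them, against 18.7% and 20.5% of all genes.

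The share of cells in which a gene was detected was compared after each cell was thinned to 1400 UMIs. This left 7230 cells of 0hr-WT and 9482 of 24hr-WT, with 801 and 421 shallower cells left out. The low-UMI cells described above with the depth of the libraries numbered 835 in 0hr-WT and 2301 in 24hr-WT. Nearly all of them were thus left out of 0hr-WT, but most stayed in 24hr-WT. The part of this difference in shares, UMIs per detecting cell and spread was not tested separately. Of the measured genes, 102 were detected in a share at least 20 percentage points higher in 24hr-WT, and 97 in a share at least 20 points lower. The largest increase was that of Hspd1, from 14.95% to 75.1% of cells. Mif, a cytokine-like tautomerase, was detected in 40.6% and 91.2% of cells, with a level of 390 and 2834 CPM, and Tpi1 in 5.49% and 53.2%. Ncl, nucleolin, was detected in 32.4% and 80.0%, Hspe1 in 32.8% and 76.8%, Ran, the GTPase of nuclear transport, in 37.0% and 79.5%, Pgk1, a glycolytic kinase, in 19.9% and 61.6%, and Itm2a in 12.2% and 53.2%. Most of these genes act in protein folding, glycolysis or the nucleolus. Without thinning, Hspd1 was detected in 38.6% and 94.3% of cells, Mif in 74.3% and 96.2% and Tpi1 in 16.8% and 84.0%.

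The largest decreases in share were those of Klf2, from 71.2% to 13.4% of cells (chr8:72319033-72321656, plus strand), Crip1, from 78.3% to 22.9%, and Selenow, a selenoprotein, from 60.1% to 6.42%. Emp3 was detected in 57.9% and 10.3%, Igfbp4, an insulin-like growth factor binding protein, in 54.5% and 10.6%, Myl12b, a myosin light chain, in 75.1% and 28.8%, and Ly6e in 80.7% and 36.9%. The predicted gene Gm11808 was detected in 69.5% and 19.5%. Il7r was detected in 41.0% of thinned cells of 0hr-WT and 1.40% of those of 24hr-WT, Sgk1 in 12.8% and 0.316%, and S1pr1 in 32.4% and 2.20%. As a background, B cell genes were detected in very unequal shares of thinned cells, Cd79a in 0.138% and 0.0316%, Cd74 in 0.526% and 6.09% and Ighm in 32.5% and 16.2%, so no single level of background is given for these genes. Without thinning, Klf2 was detected in 90.1% and 37.3% of cells, Selenow in 85.8% and 36.0% and Il7r in 68.0% and 4.75%.

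**Figure D4:**
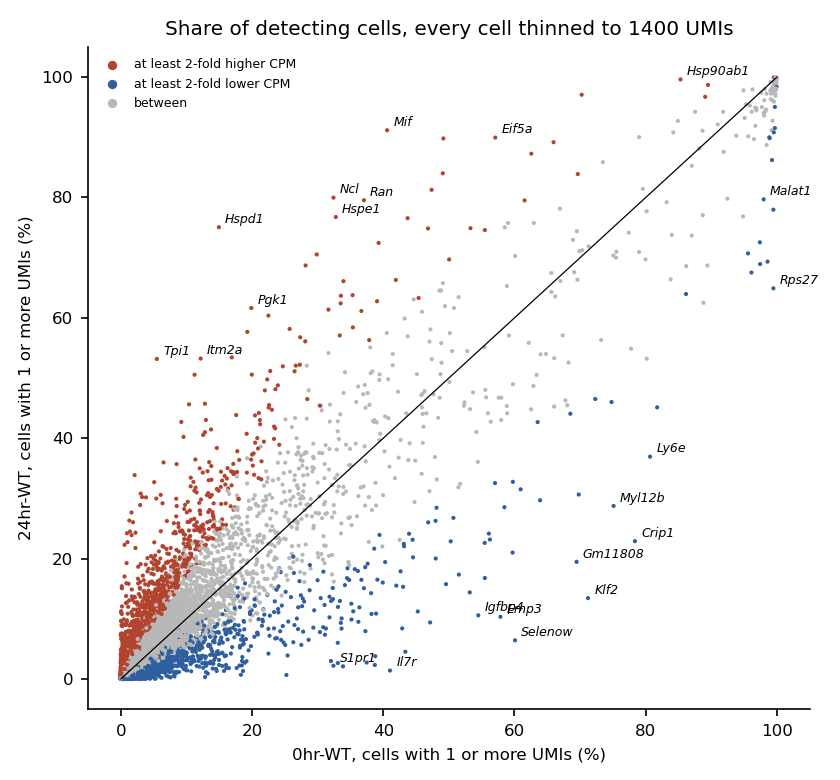
Share of cells with at least 1 UMI of a gene, after thinning to 1400 UMIs per cell, in 0hr-WT (x axis, %) and 24hr-WT (y axis, %), 1 point per gene. Hspd1, Mif and Tpi1 lie far above the diagonal, and Klf2, Selenow and Crip1 far below it. Red points were called higher and blue points lower by CPM.

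The share of detecting cells and the UMIs per detecting cell were also compared. At 1400 UMIs per cell most genes give 1 UMI where they are detected, so a ratio per detecting cell near 0 was fixed in advance for all but abundant genes. Among 1003 genes called higher that were detected in at least 1% of thinned cells of both libraries, the median log2 ratio of the share was 1.22 and that of the UMIs per detecting cell 0.08, and 7 of them were at least 2-fold higher per detecting cell. Among 1066 genes called lower the medians were -1.02 and -0.02, with 10 at least 2-fold lower per detecting cell. Hsp90ab1 was detected in 85.3% and 99.6% of cells with 2.51 and 8.96 UMIs per detecting cell, Mif with 1.33 and 3.71, Npm1, nucleophosmin, with 1.78 and 4.36 and Eif5a, a translation factor that carries hypusine, with 1.55 and 3.24. In the other direction, Rps27 had 7.43 and 1.74 UMIs per detecting cell and Crip1 had 2.68 and 1.33.

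Ccl3, Ccl4 and Il2 were held by fewer cells than an even spread of their UMIs would give. Evenness was measured as the variance of the UMIs over thinned cells divided by their mean, which is near 1 when a gene is spread at random. Its median over 6210 genes with at least 200 thinned UMIs in 24hr-WT was 1.03, and 52 genes had a value of 2 or more. In 0hr-WT it was 1.01 over 5236 genes, with 17 genes at 2 or more. Genes of high spread were not only secreted factors, since Gm26917 had 26.7, mt-Co3 14.4 and mt-Cytb 12.04 in 24hr-WT. In 0hr-WT, Gm26917 had 2.01, mt-Co3 2.065 and mt-Cytb 1.89. Mitochondrially encoded genes summed to 97049 CPM in the 24hr-WT cells with under 1/3 of the median UMIs and to 12961 CPM in the rest. The part of such cells in the spread, and in the number of genes at 2 or more, was not tested. Ccl3 had 27.0, the highest value, and was detected in 1.95% of cells where an even spread of its UMIs would give 4.97%. Ccl4 had 10.5 and was detected in 7.47% of cells against 18.5% under an even spread, with 2.73 UMIs per detecting cell, and Il2 had 8.21, with 6.66% against 14.2% and 2.31 UMIs. In 0hr-WT, Ccl4 and Ccl3 were in 0 of 7230 thinned cells, which allows a share of up to 0.0510%, and Il2 in 0.0553%. The enzymes and regulators with like summed levels were spread more evenly: Asns had 1.23, with 7.16% of cells against 7.98% under an even spread, Cdkn1a 1.43, Rgs16 1.29 and Bcat1 1.04. Without thinning, Ccl4 was detected in 18.9% of the cells of 24hr-WT, Il2 in 16.5%, Asns in 25.7% and Ccl3 in 5.88%. Ccl1 was in 0.190% of thinned cells, with 8.28 UMIs per detecting cell.

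**Figure D5:**
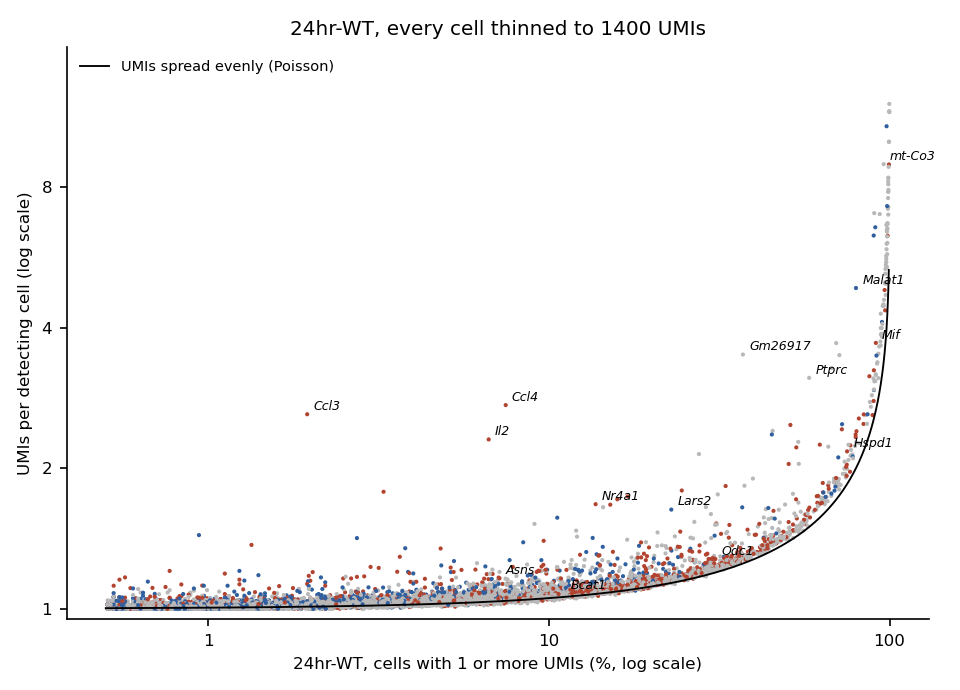
UMIs per detecting cell (log scale) against the share of cells with at least 1 UMI (%, log scale) in 24hr-WT, thinned to 1400 UMIs per cell, for genes in at least 0.5% but not nearly all of the cells, with genes called higher in red, lower in blue and the curve of an even (Poisson) spread in black. Most genes follow the curve, Asns and Bcat1 among them, while Ccl3 (2.61 UMIs per detecting cell), Ccl4 (2.73) and Il2 (2.31) lie far above it.

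In 0hr-WT, genes of high spread included Nr4a1, an immediate-early gene, with 3.92 at 1.69% of cells, Egr1 with 2.67, Igfbp4 with 2.50, the interferon-stimulated Isg15 with 2.43 and Tnfrsf4 with 2.38. In 24hr-WT, Nr4a1 was detected in 13.7% of cells and Tnfrsf4 in 33.9%. Gm42418 had 26.2 in 0hr-WT and 17.02 in 24hr-WT. Ptprc, which encodes CD45, had 4.94 in 24hr-WT, where it was detected in 58.1% of cells with 3.12 UMIs per detecting cell, against 47.2% with 1.45 in 0hr-WT.

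Altogether 49 measured genes had 0 UMIs in 0hr-WT and none had 0 in 24hr-WT. Beside the chemokines and Cth they included Bdh2, an oxidoreductase at 35.5 CPM in 24hr-WT and 439-fold above the floor. Ak4, a mitochondrial adenylate kinase, was at 13.1 CPM, 162-fold above it. Crabp2, a retinoic acid binding protein, was at 9.06 CPM and 112-fold, and Egr4 at 4.01 CPM and 49.6-fold. Bdh2 was detected in 4.12% of thinned 24hr-WT cells and was at 40.2 CPM in 24hr-KO. As 24hr-WT held more UMIs than 0hr-WT, a gene at 0 is likelier in 0hr-WT.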

How the data were processed

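CD4+ T cells of 3 mouse libraries were profiled by droplet single-cell RNA sequencing, 1 library per condition. The authors aligned the reads to mm10 and counted UMIs with Cell Ranger (version 3.1.0 in the deposited files), and deposited raw counts per gene and called barcode, without normalization or removal of doublets. Whether introns or strand were used in counting is not given in the sources used here.

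From these counts, the cell filter of the study (more than 200 genes, mitochondrial share under 15%) was applied, and every cell left out failed the mitochondrial limit. No doublets were called. UMIs were summed per gene and library and divided by the library's total. Genes needed 50 UMIs over both WT libraries, a minimum that 24hr-WT, the deeper library, meets more easily. CPM carry exact Poisson intervals and ratios exact binomial intervals, at 95%, and where a gene had 0 UMIs its floor was 3 counts per library. For shares of cells, 1400 UMIs were drawn at random from every cell that had at least as many.

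Samples were grouped by their titles, and the only comparison was 24hr-WT with 0hr-WT, without a test. The genes named are the 15 highest and 15 lowest ratios at 50 CPM or more in either WT library (receptor and immunoglobulin segments left out), the 8 largest changes of share in each direction, the 2 highest and 2 lowest of each list at 20 CPM or more, and the marker genes. Some genes that this rule names are not reported here, and other genes named were chosen after their values were seen. Genes, lists and motifs were chosen with earlier results of these data known. Coordinates of genes are from GENCODE (GRCm38). On simulated counts without spread between cells, which is the model that the interval assumes, it held the true ratio at its nominal rate. The intervals do not cover uneven spread over cells, such as that of Ccl4, Il2 and Ccl3. Alternatives were median-ratio scaling, UMIs per cell, the mean of per-cell fractions, all deposited barcodes, stricter cell filters, thinned cells and minimums of 10 and 200 UMIs. Python 3.11.15, numpy 2.4.6, scipy 1.17.1, pandas 2.3.3 and matplotlib 3.10.9 were used.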

Additional observations from a re-analysis of the deposited data

How the results depend on the processing

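No paired analysis was possible because there was 1 library per condition and no test was made. The number of genes at least 2-fold higher (2136) was 6890 in UMIs per cell and between 1777 and 2562 under the other alternatives, and the number at least 2-fold lower (2349) was 534 in UMIs per cell, 1217 in cells thinned to 1400 UMIs and between 1851 and 3056 otherwise. The median log2 ratio over all genes (-0.06) was 0.0050 with median-ratio scaling, 0.026 as the mean of per-cell fractions, 0.15 in thinned cells, -0.089 with a minimum of 10 UMIs and 1.29 in UMIs per cell, which adds 1.35 to every log2 ratio by construction. For that reason every median and ratio between -1.35 and 0 turned positive per cell. Among the lists at least 2-fold lower in CPM, these were the medians of the helper lineage factors (0.066), GIMAP GTPases (0.32) and Ly6 family (0.19). Those of the glucocorticoid and FOXO targets (0.051) and B cell markers (0.28) turned positive as well. Among such genes chosen by the naming rule they were Ddit4 (0.051), Ltb (0.31), Tnfrsf1a (0.12), Gimap4 (0.082), Dck (0.14), Eif4ebp2 (0.32), Bcl2 (0.30) and Ezh1 (0.058). Genes named outside that rule, such as Dnajb1 and Ccl5, also turned positive. Over all alternatives, the direction was kept in 441 of 465 values of list medians (52 lists). It was kept in 1930 of 1989 log2 ratios (221 genes) and in 32 of 32 changes of share (16 genes). In part this was fixed in advance. Another minimum of UMIs leaves the ratio of a gene unchanged, and median-ratio scaling shifts all ratios by the same amount. The share genes and most other named genes were also chosen as extremes of these values. In thinned cells 174 of the 221 ratios lay outside their counting interval and 47 within it. As the mean of per-cell fractions, 146 lay outside and 75 within. Without the cells below 1/3 of the median UMIs, 2116 genes were higher and 2471 lower. Some alternatives also changed the set of genes, which numbered 9738 in thinned cells in place of 11453. With 1 library per condition, differences between mice, cultures or library preparations cannot be told from the response, and low levels in 0hr-WT are limited by its depth.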
